A study of Mus musculus with 18 samples.

Results

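The potassium channel genes described here were the 96 genes, of 62379 gene symbols in the files, whose symbol begins with Kcn followed by a family letter. They were chosen by symbol alone and comprised 40 pore subunits of voltage-gated channels, 15 inward rectifiers, 14 tandem-pore domain channels, 8 pore subunits of calcium- or sodium-activated channels and 17 accessory or interacting proteins. The 2 remaining symbols, Kcnq1ot1 and Kcnh7/Gca, were not counted as channel subunits: the first is a long noncoding RNA and the second joins a channel gene with its neighbour. All 96 had a row in the iWAT and BAT files and 95 had one in the eWAT files, where Kcnh7/Gca was not listed.

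RNA-seq was carried out on mature adipocytes of inguinal white adipose tissue (iWAT, 6 samples), mature adipocytes of epididymal white adipose tissue (eWAT, 6 samples) and intact brown adipose tissue (BAT, 6 samples). The samples came from male wild type mice of 16 weeks of age on regular chow (C57BL/6J in the protocol, C57BL/6 in the strain label), with no transgene or drug treatment in any group. Collagenase digestion freed the white adipocytes, which were taken from the top layer after they had floated up, while BAT was frozen intact, so that a difference between white and brown samples cannot be told apart from the way the RNA source was prepared. Nothing in the labels states that the 6 samples of a depot came from separate mice, so the p-values below measure the spread between these samples.

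Levels are given as RPKM, the number of reads on a gene scaled to the gene's length and to the sample's total of reads. These totals lay between 22929576 and 34512470 reads. The iWAT and BAT files count reads over the merged exons of a gene and the eWAT files count them over single transcripts, of which the most-read one was used for each gene. Only 23 of the 96 members had an identical row, with the same position, length and exon number, in all 18 samples. A mean RPKM of at least 1 over the 6 samples of a depot was taken as expressed.

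Potassium channels let potassium leave the cell along its gradient and so set the resting membrane potential and how quickly the cell returns to it. Inward rectifiers and tandem-pore channels are open near the resting potential, voltage-gated channels open on depolarization, and calcium-activated channels open when intracellular calcium increases. Most are assemblies of several pore subunits, and many carry accessory subunits that change gating or transport to the membrane. In adipose tissue Kcnk3 is best known as a gene that is enriched in brown adipocytes, while Kcnj8 with Abcc9 forms the ATP-sensitive channel of vascular smooth muscle and pericytes and Kcnn4 and Kcna3 are the channels usually found in macrophages and lymphocytes.

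The depot labels were checked against marker genes. The summed RPKM of 5 adipocyte markers was 10753 to 16455 in iWAT, 9091 to 16665 in eWAT and 5655 to 7026 in BAT, and that of 5 brown adipocyte markers was 22.2 to 31.6, 4.69 to 7.35 and 2042 to 2636, so that each depot carried the markers its label implies. Other cell types were present to unequal degrees. Macrophage markers (5 of 6 listed genes found) summed to 693 in eWAT sample 15 and to 52.2 to 146 in the other eWAT samples. Skeletal muscle markers summed to 1340 in BAT sample 12 and to at most 119 in the other BAT samples. Several results in which these libraries held the highest values are given with and without them.

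Few of the 96 genes were expressed at this level. In iWAT 13 members (13.5%) reached a mean RPKM of 1, in eWAT 17 of 95 (17.9%) and in BAT 7 (7.29%), while 26.4%, 29.0% and 24.9% of the 45151 symbols that all files hold did so. In all, 19 members were expressed in at least 1 depot. Expression in all 3 depots was found for 5 members, among them Kcnk3, Kcns3, Kcnj8 and Kcna5. Another 8 members, among them Kcnj15, Kcnj14, Kcnj2, Kcnk2, Kcnh2, Kcne1l and Kcne4, were expressed in both kinds of white adipocyte and not in BAT. In eWAT alone 4 members passed, among them Kcnn4, Kcnab2 and Kcnk6, and in BAT alone Kcnj11 and Kcnn1. The level of Kcnab2 was scaled to a row of 3574 bp in eWAT and of 9157 bp in the other depots. At the other end, 68 members in iWAT, 61 in eWAT and 66 in BAT had a mean RPKM below 0.1. No read was found in any sample of a depot for 22, 12 and 14 members, and 7 of these (Kcna10, Kcnh5, Kcnj3, Kcnk16, Kcnk9, Kcns2 and Kcnv1) had 0 reads in all 18 samples. With 3 reads as the smallest count told from 0, those 7 genes could have been at an RPKM of up to 0.0160 to 0.108, depending on gene length and sample, counting error only.

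The member just above the limit in iWAT was Kcna5 (1.68), and those on either side of it were Kcnk6 (1.30) and Kcnk13 (0.868) in eWAT and Kcnj11 (1.13) and Kcna7 (0.830) in BAT. The BAT count depended on the limit, with 13 members at a mean RPKM of at least 0.5 and 5 at a mean of at least 2. Without eWAT sample 15 the mean of Kcnk6 was 0.824, that of Kcnk13 was 0.400 and the eWAT count was 16. Without BAT sample 12 the mean of Kcnj11 was 0.920, that of Kcna7 was 0.149 and the BAT count was 6.

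**Figure D1:**
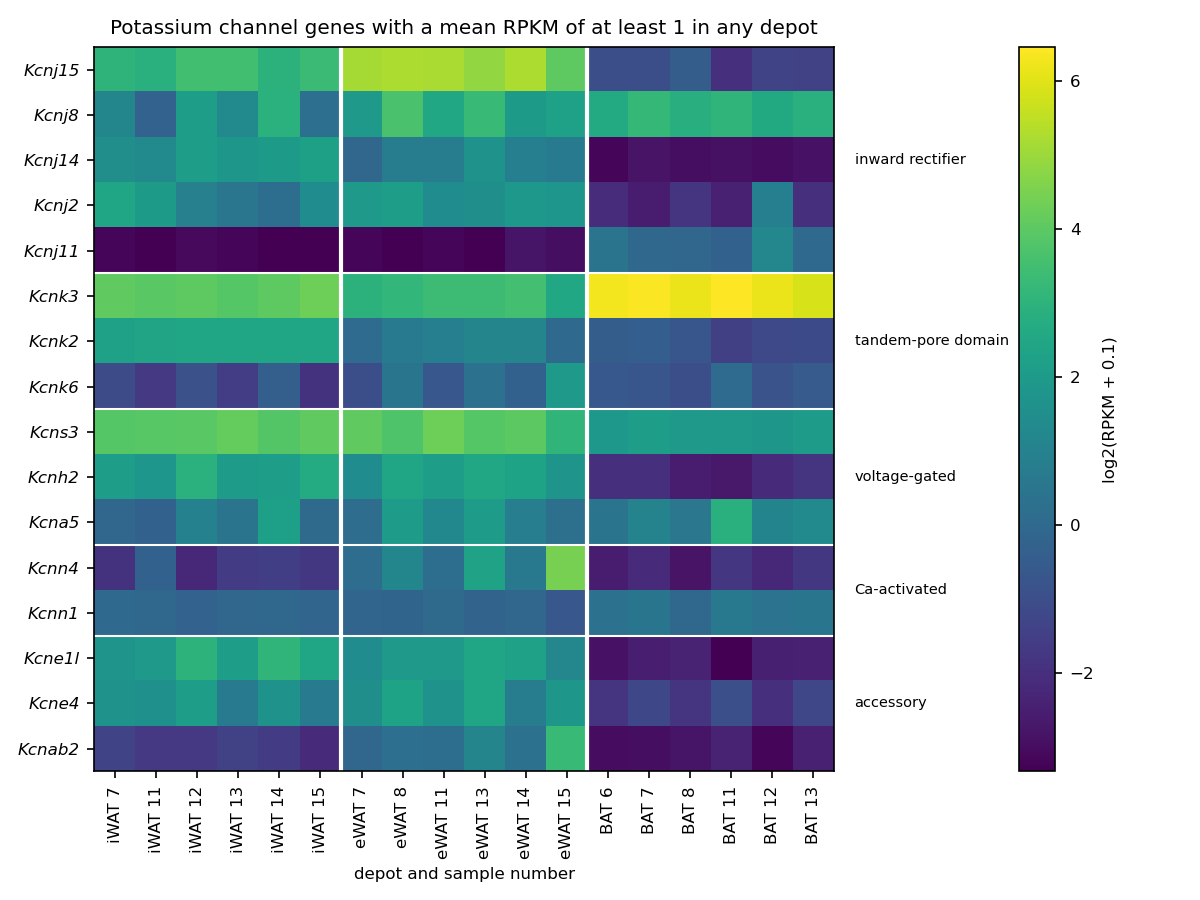
Heat map of 16 members whose mean RPKM reached 1 in at least 1 depot (rows, grouped by channel family) in the 18 samples (columns, named by depot and sample number), coloured by log2(RPKM + 0.1). Kcnk3 is brightest in the 6 BAT columns and Kcnj15 in the eWAT columns, and Kcnn4 and Kcnab2 stand out in eWAT 15.

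The depots differed in which channel led. In BAT 1 gene dominated, since Kcnk3 held 69.3% of the summed mean RPKM of all members. In iWAT the highest member, also Kcnk3, held 18.9%, and in eWAT the highest, Kcnj15, held 28.7%. The leading members in iWAT included, in order, Kcnk3 (16.4), Kcns3 (15.6), Kcnj15 (9.22), Kcne1l (5.48) and Kcnk2 (5.20), where the ranges of Kcnk3 and Kcns3 overlapped. Those in eWAT included Kcnj15 (32.1), Kcns3 (14.7), Kcnk3 (9.05), Kcnj8 (6.67) and Kcnn4 (5.41), and those in BAT included Kcnk3 (75.3), Kcnj8 (7.27), Kcns3 (3.88), Kcna5 (2.72) and Kcnn1 (1.21).

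**Figure D2:**
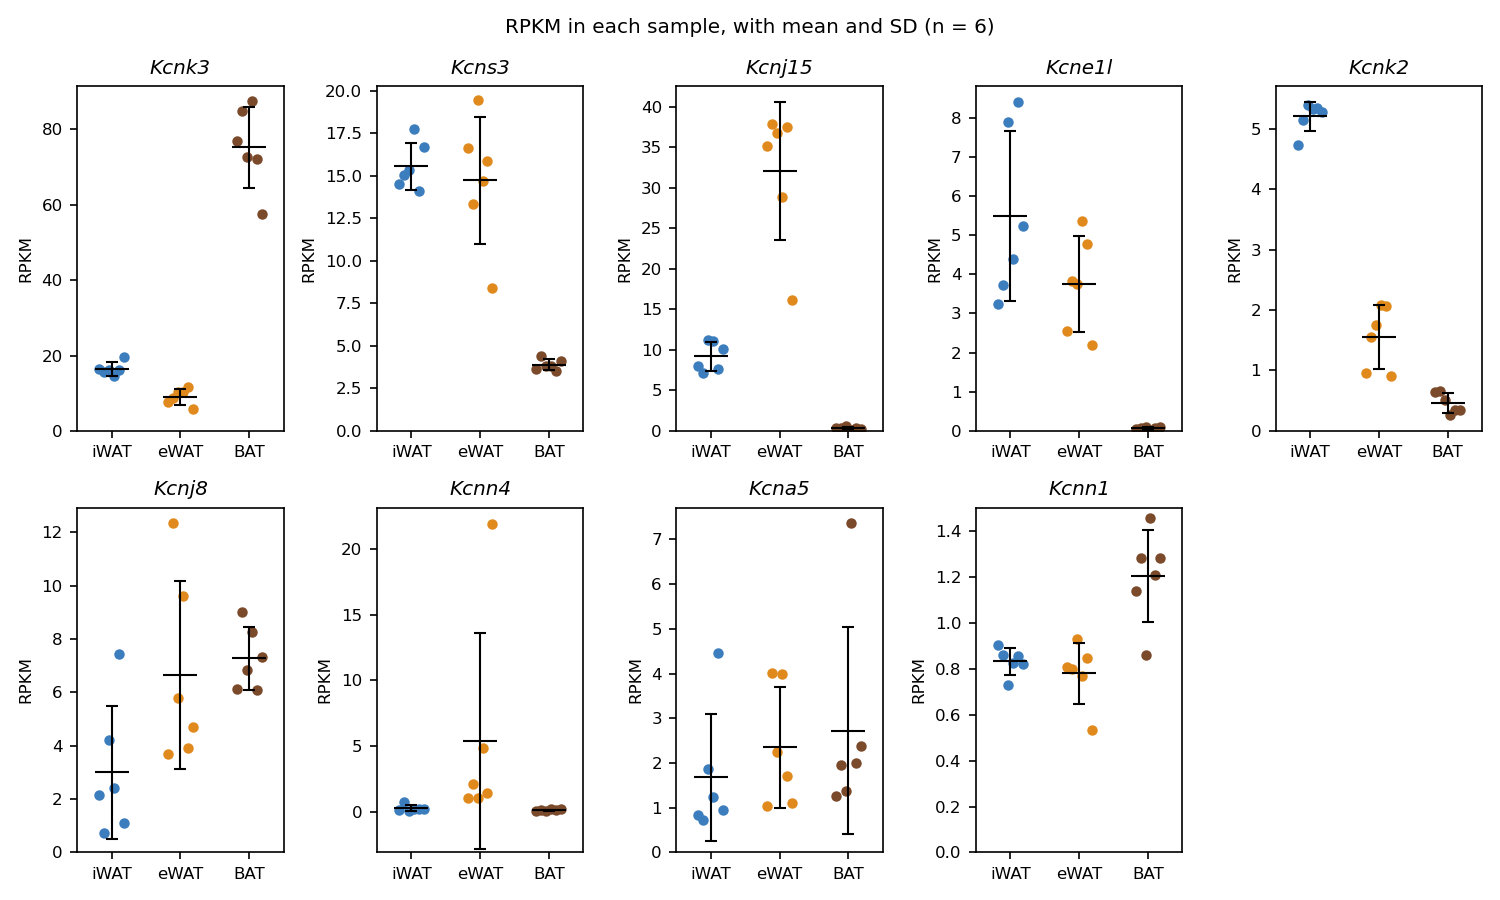
RPKM (linear axis) of 9 members that were among the 6 highest of any depot, with 1 point for each of the 6 samples of a depot, a horizontal bar at the mean and whiskers of 1 SD. Kcnk3 lies between 57.5 and 87.5 in BAT and at or below 19.7 in the white adipocytes, while Kcnj15 lies at or below 0.632 in BAT.

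The regions just before the start of these genes are shown for 4 expressed members that had 1 entry in the RefSeq promoter table (GRCm38.p6). Among such members, Kcne1l, Kcnh2 and Kcnj15 were the 3 with the largest increase in iWAT over BAT. Kcnj8 was the 1 with the largest decrease, although its log2 fold change (-1.53) was small beside those of the other 3. The table had an entry for 70 of the 96 members and 12 of the 19 expressed ones. It had none for Kcnk3, Kcnj11 and Kcnj14. Each sequence is the 250 bases before the annotated start, 5′ to 3′ on the strand of the gene, with matches on either strand to the TATA box motif TATAAA, the motif CCAAT, the GC box motif GGGCGG, the nuclear receptor half-site AGGTCA and the cyclic AMP response half-site TGACG in capitals. Kcne1l lies at chrX:142306199-142306448 (minus strand), Kcnh2 at chr5:24329592-24329841 (minus), Kcnj15 at chr16:95257308-95257557 (plus) and Kcnj8 at chr6:142571615-142571864 (minus).
Kcne1l: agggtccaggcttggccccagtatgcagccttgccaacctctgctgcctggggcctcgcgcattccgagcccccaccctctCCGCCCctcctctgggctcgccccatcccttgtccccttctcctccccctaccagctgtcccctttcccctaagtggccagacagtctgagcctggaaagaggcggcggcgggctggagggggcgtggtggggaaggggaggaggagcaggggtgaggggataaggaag
Kcnh2: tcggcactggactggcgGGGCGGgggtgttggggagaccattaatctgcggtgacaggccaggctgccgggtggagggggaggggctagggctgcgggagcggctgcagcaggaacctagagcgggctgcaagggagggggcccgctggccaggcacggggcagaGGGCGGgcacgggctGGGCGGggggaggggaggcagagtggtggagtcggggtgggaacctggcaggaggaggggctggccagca
Kcnj15: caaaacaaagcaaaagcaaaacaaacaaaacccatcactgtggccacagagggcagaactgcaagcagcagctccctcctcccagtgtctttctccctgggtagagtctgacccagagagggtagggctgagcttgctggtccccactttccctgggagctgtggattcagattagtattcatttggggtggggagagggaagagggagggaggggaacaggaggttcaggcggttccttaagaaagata
Kcnj8: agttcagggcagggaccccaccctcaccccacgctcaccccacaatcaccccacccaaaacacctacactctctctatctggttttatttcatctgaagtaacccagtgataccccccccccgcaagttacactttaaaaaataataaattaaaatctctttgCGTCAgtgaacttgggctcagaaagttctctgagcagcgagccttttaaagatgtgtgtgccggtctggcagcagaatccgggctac
Kcne1l had 1 GC box, Kcnh2 had 3 GC boxes, Kcnj8 had 1 TGACG match and Kcnj15 had no match to any of the 5 motifs. GC content was 68.0% in Kcne1l, 73.6% in Kcnh2, 53.2% in Kcnj15 and 49.2% in Kcnj8, against a median of 52.4% over all 32851 windows of the table. Of the 95 windows of members, 42 (44.2%) held GGGCGG, compared with 32.7% of all windows. TATAAA was in 3 of the 95 (3.16%) compared with 12.4%, AGGTCA in 6 (6.32%) compared with 14%, CCAAT in 28 (29.5%) compared with 33.8% and TGACG in 16 (16.8%) compared with 17.8%. None of the 19 windows of expressed members, which came from 12 genes, held TATAAA or AGGTCA. These shares are descriptions of letters in the windows, and some genes have several windows.

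The first comparison asked which channel genes differed between inguinal white adipocytes and BAT, where both kinds of sample have the same rows. Kcnk3 and Kcnj11 were the expressed members with the clearest higher level in BAT, while Kcnj14, Kcne1l, Kcnh2 and Kcnj15 led those that were higher in iWAT. Of the 35 members with enough reads to be tested, 28 passed an adjusted p of 0.05 in edgeR's quasi-likelihood test, 14 higher and 14 lower in iWAT. Among all 19733 rows tested, 67.6% passed, 34.0% higher and 33.6% lower, and the members' counts are to be read against these shares. Without TMM scaling, the step that sets the samples to a common level, 16 members were higher and 11 lower, against 46.2% and 24.0% of all rows, whose median moved to 0.27. The median log2 fold change of the members was 0.17 and that of all rows 0.01. Of the 19 expressed members 11 were higher in iWAT, 6 were lower and 2 (Kcna5 and Kcnn4) did not pass.

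**Figure D3:**
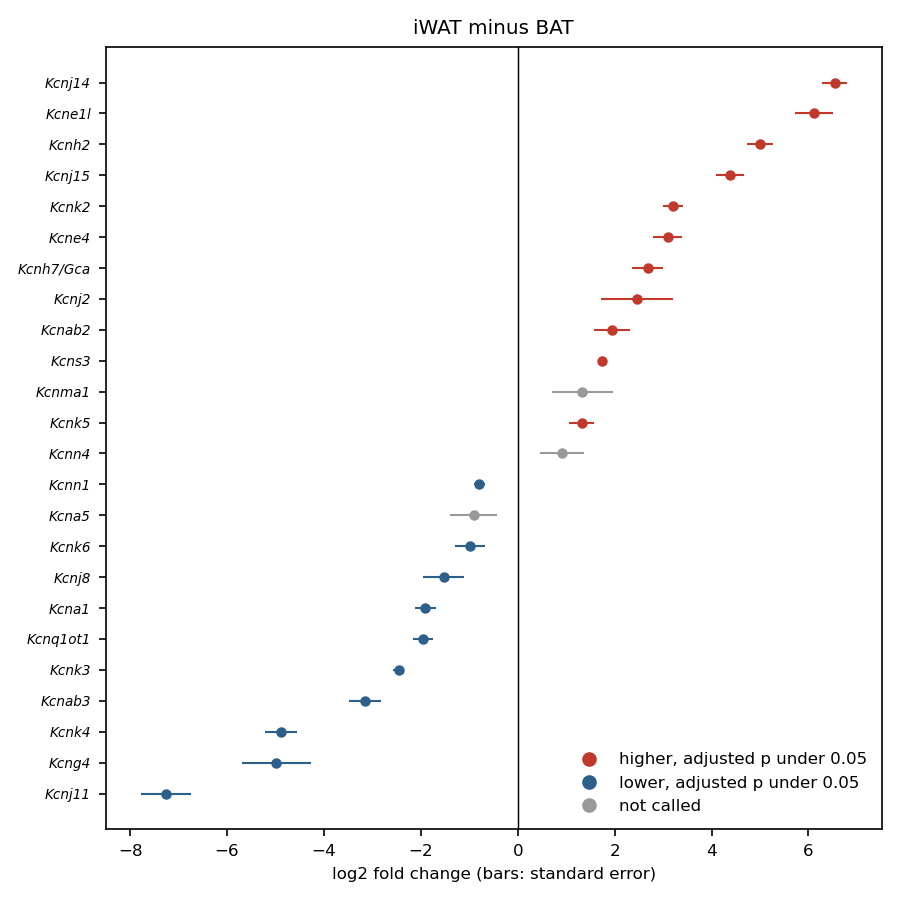
Log2 fold change (iWAT minus BAT, horizontal axis) with its standard error for 24 of the 35 members tested, ordered by size, in red where higher and in blue where lower in iWAT at an adjusted p under 0.05. The values run from -7.26 (Kcnj11) to 6.54 (Kcnj14).

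Tandem-pore domain channels carry background potassium currents. Kcnk3 (chr5:30890543-30927643 in mm9, plus strand, 2 exons), an acid-sensitive member of that group, had the highest level of all members. Its RPKM in BAT was 57.5 at the lowest, 74.7 at the median and 87.5 at the highest, and in iWAT it was 14.5, 16.1 and 19.7. All BAT samples lay above all iWAT samples. The means were 75.3 ± 10.7 and 16.4 ± 1.76 (SD, n = 6 each), with a log2 fold change of -2.46 (SE 0.11, edgeR adjusted p = 2.38e-10), or 5.51-fold lower in iWAT. Bulk RNA cannot tell a smaller number of expressing cells from less RNA per cell, here and in what follows.

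Kcnk2, a mechanosensitive and lipid-sensitive channel, went the other way. It ranged from 4.73 to 5.39 in iWAT (median 5.31) and from 0.261 to 0.658 in BAT (median 0.436), with a log2 fold change of 3.20 (SE 0.21, edgeR adjusted p = 1.12e-08). Its iWAT values lay close together, with an SD of 0.245 around a mean of 5.20. Kcnk6 was at 0.350 in iWAT and 0.585 in BAT and passed as lower in iWAT (log2 fold change -0.98, SE 0.31, edgeR adjusted p = 0.0122), but not without TMM scaling (-0.73, edgeR adjusted p = 0.0572). All 5 tandem-pore members tested passed, 2 higher and 3 lower in iWAT, the others being Kcnk5 and Kcnk4.

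Among the inward rectifiers, 3 of the 5 tested were higher in iWAT than in BAT and 2 were lower. Kcnj14 (chr7:53071831-53080126 in mm9, minus strand) had an RPKM of 2.40 to 4.60 in iWAT with a median of 3.69. In BAT it was 0.0109 to 0.0440, from 15 reads in 6 samples, and the log2 fold change was 6.54 (SE 0.25, edgeR adjusted p = 6.23e-11), the largest increase of any member.

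Kcnj15 (chr16:95479165-95521867 in mm9, plus strand, 8 exons) had 7.20 at the lowest, 9.07 at the median and 11.2 at the highest in iWAT. In BAT its values were 0.155, 0.353 and 0.632. All BAT samples lay far below all iWAT samples, and the log2 fold change was 4.38 (SE 0.28, edgeR adjusted p = 8.83e-09). Kcnj2, a strong inward rectifier of muscle and other excitable cells, was at 2.67 ± 1.63 in iWAT and 0.402 ± 0.677 in BAT. In BAT the sample with skeletal muscle markers, sample 12, had an RPKM of 1.78 for Kcnj2 and the other BAT samples had 0.0695 to 0.185. The log2 fold change of Kcnj2 was 2.46 (SE 0.75, edgeR adjusted p = 0.00989) with that sample and 4.15 (adjusted p = 6.92e-06) without it.

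The pore subunits of ATP-sensitive channels, Kcnj8 and Kcnj11, were both lower in iWAT. Kcnj11, the subunit known from pancreatic beta cells and striated muscle (chr7:53352493-53356134 in mm9, minus strand), had 4 reads over all iWAT samples and 693 over all BAT samples. Its RPKM in BAT was 0.725 at the lowest, 0.891 at the median and 2.20 at the highest, and in iWAT no sample was above 0.0191. The log2 fold change was -7.26 (SE 0.52, edgeR adjusted p = 2.39e-08), the largest decrease of any member. The highest BAT value, 2.20, was in sample 12, and the other 5 BAT samples, at 0.725 to 1.27, were still above every iWAT sample.

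Kcnj8 was at 6.08 to 9.0 in BAT (median 7.09) and at 0.746 to 7.44 in iWAT (median 2.28), so that the groups overlapped. The log2 fold change was -1.53 (SE 0.42, edgeR adjusted p = 0.00497). Within iWAT the order of the samples in Kcnj8 followed vessel markers at both ends: sample 14 had the highest Kcnj8 (7.44), endothelial (145) and smooth muscle and pericyte (118) sums, and sample 11 the lowest (0.746, 25.5 and 36.2). The endothelial markers summed to 25.5 to 145 in iWAT and 46.1 to 91.9 in BAT, and none of the 5 fell under a mean RPKM of 1 in either depot. Their part in the difference was not tested.

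The voltage-gated group had 16 members tested, of which 5 were higher in iWAT, 6 were lower and 5 did not pass. Kcns3, an electrically silent subunit that modifies other voltage-gated channels, ranged from 14.1 to 17.7 in iWAT (median 15.2) and from 3.53 to 4.38 in BAT (median 3.82), with a log2 fold change of 1.74 (SE 0.08, edgeR adjusted p = 2.84e-10).

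Kcnh2, which carries the rapid repolarizing current of the heart, ranged from 3.43 to 7.38 in iWAT (median 4.25) and from 0.0608 to 0.188 in BAT (median 0.141). Its log2 fold change was 5.00 (SE 0.27, edgeR adjusted p = 1.34e-09) with no overlap between the groups.

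Kcna5, a channel of vascular smooth muscle and atrial cells, did not pass. It was at 0.715 to 4.46 in iWAT (median 1.09) and 1.26 to 7.36 in BAT (median 1.98), with a log2 fold change of -0.91 (SE 0.49, edgeR adjusted p = 0.118). Its highest samples were iWAT 14 and BAT 11, the samples with the highest endothelial sums of their depots (145 and 91.9). The smooth muscle and pericyte sum was also highest in iWAT 14 (118), but in BAT it was highest in sample 13 (120), with 113 in sample 11. Without iWAT sample 14 Kcna5 passed as lower in iWAT (-1.51, SE 0.42, edgeR adjusted p = 0.00611).

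Of 3 calcium-activated members tested, Kcnn1 was lower in iWAT and Kcnn4 and Kcnma1 did not pass. Kcnn1, a small-conductance channel, ranged from 0.731 to 0.906 in iWAT and from 0.862 to 1.46 in BAT, with a log2 fold change of -0.79 (SE 0.11, edgeR adjusted p = 2.78e-05). The files hold another row for Kcnn1 on the opposite strand that overlaps it, with a mean RPKM of 0.415 in iWAT and 0.614 in BAT, so its reads may be divided between the rows. Kcnn4 was at 0.280 in iWAT and 0.125 in BAT (edgeR adjusted p = 0.0952), and it passed as higher in iWAT without TMM scaling (1.15, adjusted p = 0.0394) and without iWAT sample 12 (1.09, adjusted p = 0.0425). It too has another row on the opposite strand that overlaps it, at 0.101 in iWAT and 0.0519 in BAT. Kcnma1, the large-conductance channel of smooth muscle, was at 0.0858 in iWAT and 0.0279 in BAT (edgeR adjusted p = 0.0778), and 74 of its 109 BAT reads came from sample 12. Without that sample its BAT mean was 0.0107 and it passed as higher in iWAT (log2 fold change 2.70, SE 0.39, edgeR adjusted p = 4.76e-05).

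Among the accessory proteins 3 of the 4 tested were higher in iWAT and 1, Kcnab3, was lower. Kcne1l (now also called Kcne5, chrX:138739295-138740837 in mm9, minus strand), a small membrane protein that modifies voltage-gated channels, had an RPKM of 3.25 at the lowest, 4.82 at the median and 8.39 at the highest in iWAT. In BAT it was 0 to 0.0971, from 18 reads, and the log2 fold change was 6.12 (SE 0.39, edgeR adjusted p = 8.23e-09). Kcne4, which inhibits several voltage-gated channels, was at 2.74 ± 1.07 in iWAT and 0.267 ± 0.108 in BAT (3.10, SE 0.30, edgeR adjusted p = 5.93e-07). Kcnab2, an oxidoreductase-like cytoplasmic subunit, was at 0.224 in iWAT and 0.0491 in BAT (1.95, SE 0.37, edgeR adjusted p = 0.000358).

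Of the 16 tested members below a mean RPKM of 1 in all depots, 3 were higher in iWAT, 8 were lower and 5 did not pass. Those lower in iWAT included the voltage-gated genes Kcna1 (0.226 in iWAT, 0.714 in BAT) and Kcng4 (0.0250 and 0.626) and the tandem-pore gene Kcnk4 (0.0207 and 0.510). Kcna7, a skeletal and cardiac muscle channel that was not tested, had a mean RPKM of 0.830 in BAT, of which sample 12 (4.24) supplied most: the other BAT samples were at 0.0750 to 0.300.

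The second comparison asked how epididymal differed from inguinal adipocytes. Kcnj15 was higher in eWAT, Kcnk2, Kcnj14 and Kcnk3 were lower, and Kcnn4 and Kcnab2, whose highest values were all in 1 eWAT library, were higher with and without it. With 1 row per gene, 25 of 39 members tested passed in edgeR, 12 higher and 13 lower in eWAT, against 52.4% of 18383 rows, 28.3% higher and 24.2% lower. The rows of the files differ in kind here, which bears on small differences and, where row lengths differ much, on larger ones too. Without TMM scaling the median of all rows moved from -0.04 to 0.39. The members' calls were then 14 higher and 7 lower, against 47.0% and 5.20% of all rows. Using the most-read RefSeq transcript in eWAT gave 8 higher and 17 lower, against 32.3% and 30.8% of 13283 rows.

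On the rows that are identical in all samples, 3 of 9 members tested passed, all lower in eWAT (Kcna1, Kcnj14 and Kcnk3), against 12.9% of 5733 rows. Kcnk3, whose row is identical in all samples, ranged from 5.74 to 11.5 in eWAT with a median of 9.49, and its highest eWAT sample lay below its lowest iWAT sample (14.5). Its log2 fold change was -0.91 (SE 0.14, edgeR adjusted p = 0.000256) on identical rows and -1.29 (SE 0.15) with 1 row per gene from the same reads, so the scaling of the second fit moves it by that much. Kcnj14 had 0.834 at the lowest, 1.67 at the median and 3.13 at the highest in eWAT, which overlapped the iWAT range (2.40 to 4.60), and its log2 fold change was -1.06 (SE 0.23, edgeR adjusted p = 0.00362) on identical rows and -1.45 with 1 row per gene.

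For Kcnk2 the eWAT samples lay between 0.905 and 2.08 (median 1.65) and the iWAT samples between 4.73 and 5.39, with no overlap. The log2 fold change, with 1 row per gene, was -2.18 (SE 0.24, edgeR adjusted p = 5.8e-07), and under all 29 alternatives it stayed between -2.41 and -1.31 and past the threshold. The value of -1.31 was that of limma on log2(RPKM + 1), a scale on which low levels are drawn together. Kcnk2, Kcnk3 and Kcnj14 therefore had a lower level in eWAT than in iWAT, although BAT had the lowest Kcnk2 and Kcnj14 and the highest Kcnk3.

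Kcnj15 was the leading channel gene of eWAT. Its 6 values there were 35.2 (sample 7), 37.9 (8), 36.8 (11), 28.9 (13), 37.5 (14) and 16.1 (15), all above the highest iWAT sample (11.2), and sample 15 stood below the rest. The log2 fold change was 1.37 (SE 0.25, edgeR adjusted p = 0.000212), with 1.25 to 1.80 over the 29 alternatives.

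Sample 15 carried the highest levels of several members, in the library with the highest macrophage marker sum. Kcnn4 had an RPKM of 21.9 in eWAT sample 15 and of 1.03, 2.16, 1.07, 4.88 and 1.44 in samples 7, 8, 11, 13 and 14. The next highest, sample 13, also had the next highest macrophage sum (146). The log2 fold change of Kcnn4 was 3.84 (SE 0.75, edgeR adjusted p = 0.000344) with sample 15 and 2.45 (adjusted p = 0.000311) without it. Even the lowest eWAT sample (1.03) was above the highest iWAT sample (0.724).

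Kcnab2 was likewise highest in eWAT sample 15 and next in sample 13, with 9.82 in sample 15 and 0.834 to 2.1 in the others, all above the iWAT range of 0.127 to 0.300. Its log2 fold change was 3.15 (SE 0.59, edgeR adjusted p = 0.000208) and 2.04 (adjusted p = 6.66e-05) without sample 15. The Kcnab2 row was 3574 bp long in eWAT and 9157 bp in iWAT and BAT, so its RPKM levels are scaled to unlike lengths. Over the 29 alternatives, among them the fit with no row length in the offset, its log2 fold change stayed between 1.24 and 3.58 and passed. The lowest, 1.24, was that of limma on log2(RPKM + 1), where low levels are drawn together. Kcnk6 was at 3.66 in sample 15 and at 0.411 to 1.31 in the others, against 0.168 to 0.683 in iWAT. It passed with sample 15 (1.44, SE 0.46, edgeR adjusted p = 0.0136) and not without it (0.76, adjusted p = 0.0687). Kcna3, a lymphocyte and macrophage channel with too few reads to be tested, reached 0.977 in sample 15 and at most 0.286 elsewhere in eWAT. Its mean RPKM in eWAT was 0.301 with sample 15 and 0.165 without it, beside 0.0566 in iWAT and 0.0140 in BAT.

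Macrophage markers summed to 10.9 to 63.7 in iWAT, 52.2 to 693 in eWAT and 5.16 to 9.17 in BAT, and only 1 of the 5 genes, Emr1 in BAT, had a depot mean under 1, with none at 0 in all samples of a depot. Lymphocyte markers were likewise highest in eWAT sample 15, at a sum of 25.6 against at most 4.98 in the other eWAT samples. The part of these cells in the Kcnn4, Kcnab2 and Kcnk6 differences and in the Kcna3 levels was not tested. Without sample 15, the eWAT means of Kcnn4 and Kcnab2 were 2.12 and 1.25. When eWAT sample 15 and BAT sample 12 were both left out, an alternative chosen after seeing the data, 20 members passed between eWAT and iWAT, 8 higher and 12 lower, against 27.1% and 24.1% of all rows.

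**Figure D4:**
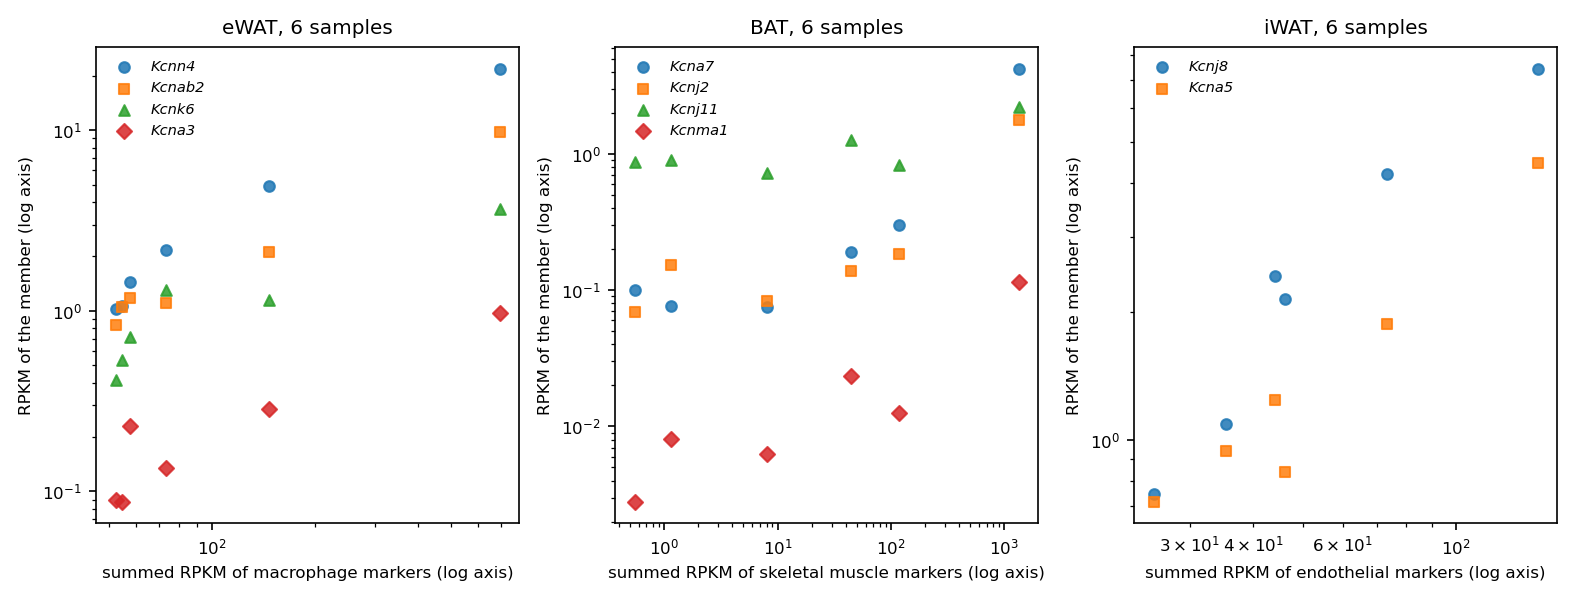
RPKM of selected members (vertical log axes) against the summed RPKM of a marker list (horizontal log axes), with 1 point for each of the 6 samples: macrophage markers in eWAT, skeletal muscle markers in BAT and endothelial markers in iWAT. The sample with the highest marker sum (693, 1340 and 145) also has the highest value of each member drawn. The members drawn are a selection, Kcna7 among them named after its values were seen, so this pattern is no test. Kcnj15, not drawn, was lowest in the eWAT sample with the sum of 693.

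Several other differences between eWAT and iWAT depended on the scaling. Kcns3 was at 14.7 ± 3.73 in eWAT and 15.6 ± 1.38 in iWAT and passed as lower in eWAT (log2 fold change -0.51, edgeR adjusted p = 0.006), but without TMM scaling it was at -0.08 (adjusted p = 0.667). The calls of Kcnh2 (-0.61), Kcne1l (-0.98) and Kcnn1 (-0.53) as lower in eWAT were also lost without TMM scaling, at -0.18, -0.55 and -0.09. That of Kcnh2 was lost under 10 of 29 alternatives, among them leaving out any of iWAT samples 12 and 15 and eWAT samples 7 and 15 alone (-0.54 to -0.51). Over all 29 alternatives the log2 fold change of Kcnh2 lay between -1.22 and -0.14. Its row was 3193 bp long in eWAT and 4845 bp in iWAT and BAT, so its levels too are scaled to unlike lengths. On identical rows Kcne1l (-0.60, edgeR adjusted p = 0.159) and Kcnn1 (-0.15, adjusted p = 0.51) did not pass. Kcnj2 (3.40 in eWAT, 2.67 in iWAT), Kcnj8 (6.67, 3.01), Kcna5 (2.35, 1.68) and Kcne4 (3.60, 2.74) did not pass with 1 row per gene. Kcnj8 passed as higher in eWAT without iWAT sample 14 (1.21, edgeR adjusted p = 0.00919) and without TMM scaling (1.14, adjusted p = 0.0324).

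Both Kcnj8 and Kcna5 were spread widely in eWAT. Kcnj8 ran from 3.68 to 12.3 in eWAT and Kcna5 from 1.03 to 4.02, both highest in sample 8, which also had the highest endothelial (211) and smooth muscle and pericyte (202) sums of that depot. Kcnma1 passed as higher in eWAT (2.25, edgeR adjusted p = 0.00284) on a transcript of 1699 bp that covers a small part of its 20858 bp merged row. With the most-read RefSeq transcript it was at 0.31 (edgeR adjusted p = 0.649), so no direction is given for it. Kcnn3, a small-conductance channel, was too low to be tested, and its mean RPKM was highest in BAT (0.0391) and below that in eWAT (0.0195) and iWAT (0.0117). Kcnk1 was at 1.49 and 0.967 in eWAT samples 14 and 15 and at most 0.179 in the other eWAT samples, and those 2 samples held the epididymis markers (77.9 and 72.3), which were at 0 in all iWAT samples.

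The third comparison set eWAT against BAT. Kcnj15, Kcne1l, Kcnj14, Kcnab2, Kcnn4 and Kcnh2 had the largest higher levels in eWAT, and Kcnj11, Kcnk3 and Kcnn1 were higher in BAT. With 1 row per gene, 33 of 39 members tested passed in edgeR, 20 higher and 13 lower in eWAT, against 73.9% of 18383 rows, 39.9% higher and 34.0% lower. The median log2 fold change of the members was 0.85 and that of all rows 0.08. Without TMM scaling 22 members were higher and 11 lower, against 63.0% and 17.1% of all rows, whose median moved to 0.81. On identical rows 7 of 9 members passed, against 67.8% of 5733 rows. This comparison shares the BAT samples with the first one and the eWAT samples with the second, so the 3 are not independent of each other.

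**Figure D5:**
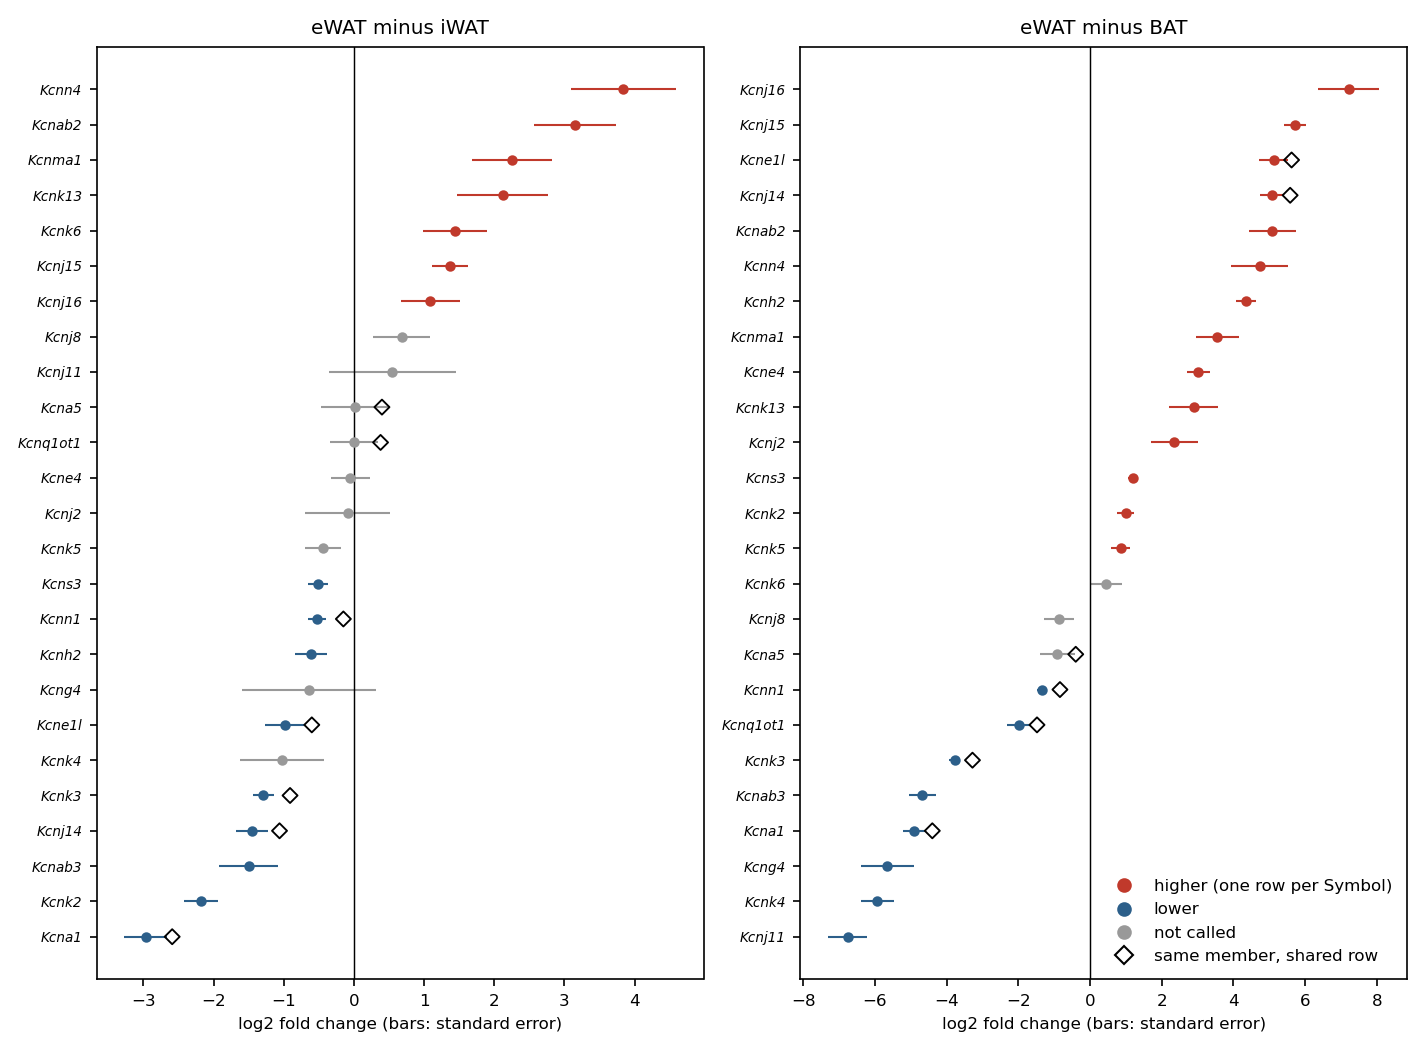
Log2 fold changes with standard errors for 25 of the 39 members tested with 1 row per gene, for eWAT minus iWAT (left) and eWAT minus BAT (right), coloured as higher (red), lower (blue) or not passing (grey), with open diamonds for 7 of the 9 members tested on identical rows. The diamonds lie to the right of the points of the same gene, and the value of Kcnj16 against BAT, where it had 0 reads, depends on the fit and is no bound.

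Kcnj15 had the largest increase among the expressed members, at 32.1 ± 8.48 in eWAT and 0.364 ± 0.163 in BAT (log2 fold change 5.72, SE 0.31, edgeR adjusted p = 8.68e-12). On identical rows Kcne1l had a log2 fold change of 5.62 (SE 0.40, edgeR adjusted p = 2.67e-10) and Kcnj14 one of 5.58 (SE 0.34, edgeR adjusted p = 3.24e-11). Kcnh2 was at 2.62 to 5.51 in eWAT and at most 0.188 in BAT (4.36, SE 0.28, edgeR adjusted p = 6.57e-11). Of these 4 genes, none had a BAT sample above an RPKM of 0.632.

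Kcnab2 and Kcnn4 were higher in eWAT than in BAT by 5.08 (SE 0.66, edgeR adjusted p = 1.32e-06) and 4.73 (SE 0.80, edgeR adjusted p = 3.27e-05), and by 3.96 and 3.34 without eWAT sample 15. For Kcnab2, whose row lengths are unlike, the value lay between 1.46 and 5.77 over the 29 alternatives. The lowest, 1.46, was again that of limma on log2(RPKM + 1), where low levels are drawn together. Kcnj2 was higher by 2.35 (SE 0.66, edgeR adjusted p = 0.00339), and by 4.02 without BAT sample 12. Kcnk3 was lower in eWAT by a log2 fold change of -3.28 (SE 0.15, edgeR adjusted p = 8.82e-13) on identical rows, and Kcnj11 by -6.76 (SE 0.55, edgeR adjusted p = 1.99e-09) with 1 row per gene, from 9 reads in eWAT. Kcnn1 was lower by -0.84 (SE 0.13, edgeR adjusted p = 1.11e-05) on identical rows.

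Kcnk2, at 1.55 in eWAT and 0.464 in BAT, passed as higher (0.99, SE 0.24, edgeR adjusted p = 0.00127), as did Kcns3 (1.20, SE 0.15, edgeR adjusted p = 5.16e-07) and Kcne4 (3.02, SE 0.32, edgeR adjusted p = 8.84e-08). Kcnj8, Kcna5 and Kcnk6 did not pass. The means of Kcnj8 were close (6.67 in eWAT, 7.27 in BAT), with a log2 fold change of -0.87. Kcnj8 passed as lower in eWAT in 8 of 29 alternatives, among them the fits without iWAT sample 11, 14 or 15 or eWAT sample 8 or 13 (-1.10 to -0.87). Without those iWAT samples it stayed at -0.87, and only the spread shared by all depots changed. The scaling also moves such values: Kcna5 was at -0.91 with 1 row per gene and at -0.40 on identical rows. For Kcnk6 the log2 fold change turned from 0.44 to -0.24 without eWAT sample 15. Kcnj16, an inward rectifier below the expression limit (mean RPKM 0.208 in eWAT), had no read in BAT, which makes it at least 7.29-fold higher in eWAT against a floor of 3 reads per library.

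Other genes of potassium transport were taken from a list of 32, all of which had a row in the files. It holds channel partners, sodium pump subunits, cation-chloride cotransporters and related channels. Of 22 tested between iWAT and BAT, 3 were higher in iWAT, 12 were lower and 7 did not pass, with a median log2 fold change of -0.47, against 34.0% higher and 33.6% lower over all rows. Of the same 22 between eWAT and iWAT, 8 were higher, 6 were lower and 8 did not pass, against 28.3% and 24.2%. Between eWAT and BAT 8 were higher, 13 were lower and 1 did not pass, against 39.9% and 34.0%.

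The sulfonylurea receptor Abcc9, which joins Kcnj8 or Kcnj11 in ATP-sensitive channels, was at 3.73 ± 1.40 in iWAT, 5.74 ± 2.95 in eWAT and 5.26 ± 0.741 in BAT. Abcc8, the receptor of beta cells, was at a mean RPKM of 0.0109, 0.0104 and 0.0379. The sodium pump subunit Atp1b3 (48.2, 54.3 and 60.0 in iWAT, eWAT and BAT) was among the highest of the list in all depots. The largest decrease in iWAT against BAT was that of the sodium pump subunit Atp1b1 (0.541 and 5.76, log2 fold change -3.66, in edgeR) and the largest increase was that of the pacemaker channel Hcn4 (0.180 and 0.0479, 1.65).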

How the data were processed

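Library preparation used the NEBNext Ultra RNA kit, and reads came from an Illumina HiSeq. The authors mapped reads with the Genomatix Genome Analyzer on mm9, and the submitters' processing notes also name HISAT2 2.1.0 and cutadapt 1.16. The annotation version, the counting rule and the use of strand are not given in the sources used here. The files deposited by the authors hold whole-number read counts and RPKM, and the deposited RPKM equals reads divided by row length and by 1 total per sample (largest relative deviation 4.78552e-08). The iWAT and BAT files have 53445 merged rows and the eWAT files 189660 transcript rows, of which 27301 are identical in both.

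Members were found by symbol, in 100 merged rows and 578 eWAT rows. The members, gene lists and tests were chosen with earlier results of these data known. Counts were tested with edgeR 4.0.16 (R 4.3.3, quasi-likelihood test, TMM scaling, Benjamini-Hochberg adjustment over all rows tested, threshold 0.05) on rows that reached 10 reads in 6 or more samples. iWAT and BAT were fitted on merged rows. Comparisons with eWAT used 1 row per gene, with row length in the offset, and also the identical rows alone, with all 18 samples in 1 fit. Alternatives used DESeq2 1.42.0 and limma 3.58.1, other filters and scalings, each sample left out and the replicate number as a block. The RefSeq transcript in eWAT and the fit without eWAT sample 15 and BAT sample 12 were added after the data had been seen. The text names the 6 highest members of each depot, the 6 largest changes in each direction of each comparison, all other expressed members and a few channels studied in fat, vessels or immune cells, but some of these genes are not reported here. Counts over members include them, and plots show reported members only. Members named outside this rule, such as Kcna1, Kcna7, Kcng4, Kcnj16, Kcnk1, Kcnk4, Kcnk5, Kcnk13 and Kcnab3, were named after their values were seen. The fits were tested on simulated counts with known changes. Samples of a depot correlated at 0.942 to 0.982 in iWAT, 0.907 to 0.982 in eWAT and 0.940 to 0.982 in BAT, and none was a duplicate. Floors of 3 reads cover counting error only. Statistics other than the edgeR, DESeq2 and limma fits were computed in Python 3.11.15.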

Additional observations from a re-analysis of the deposited data

Results flagged for a closer look

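The RPKM values of the named members were compared within each depot where the mean was at least 0.1. In 11 of these 45 groups of 6 samples 1 sample stood apart, in that its gap to the nearest other sample took a larger share of the whole range than Dixon's 95% critical value. For normally distributed values chance gives this in about 1 of 20 groups, or 2.2 of 45. RPKM values can be skewed and the groups share the same libraries, so 2.2 is only a rough guide. No cause was tested.

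In eWAT the sample was number 15 in all 4 cases. Kcnn4 was at an RPKM of 21.9 there (others 1.03 to 4.88), Kcnab2 at 9.82 (others 0.834 to 2.1), Kcnk6 at 3.66 (others 0.411 to 1.31) and Kcna3 at 0.977 (others 0.0877 to 0.286).

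In BAT, sample 12 was high in Kcnj2, at 1.78 (others 0.0695 to 0.185), and in Kcnj11, at 2.20 (others 0.725 to 1.27). BAT sample 11 was high in Kcna5, at 7.36 (others 1.26 to 2.38), and in Kcnk6, at 0.971 (others 0.406 to 0.601).

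In iWAT, Kcna5 was at 4.46 in sample 14 (others 0.715 to 1.87), Kcnn4 at 0.724 in sample 11 (others 0.110 to 0.248) and Kcnk2 lowest in sample 7, at 4.73 (others 5.15 to 5.39).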

How the results depend on the processing

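On identical rows alone, 4 members were expressed in iWAT, 4 in eWAT and 3 in BAT. With no filter on low counts, 43 members passed in the comparison of iWAT with BAT, 51 in that of eWAT with BAT (1 row per gene) and 13 in the latter on identical rows. With rows of a mean RPKM of at least 1 these counts were 14, 17 and 4, and 12 between eWAT and iWAT. Between iWAT and BAT 8 passed on identical rows. The shares of all rows that passed were 42.1%, 47.8% and 30.8% with no filter, 70.6%, 76.9%, 70.9% and 62.0% with that minimum and 62.6% on identical rows. These counts follow the number of members tested. At a minimum mean RPKM of 0.5, 13 members were expressed in BAT. Kcnma1 turned to -0.95 between eWAT and iWAT with no row length in the offset. Leaving out 1 sample gave 25 to 28 calls of members between iWAT and BAT, 20 to 27 between eWAT and iWAT and 32 to 34 between eWAT and BAT. Over all rows the same fits gave 12822 to 13635 of 19733, 8975 to 9775 of 18383 and 13257 to 13716 of 18383. Of the named members, the calls of 13 of 14, 6 of 12 and 13 of 14 held in all alternatives of these comparisons. Only 35 to 39 members had enough reads to be tested, so values of the others are levels with no test.

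The numbers in the sample titles recur across depots, but the labels do not say what they mark. Same-number samples deviated together with correlations of -0.036 to 0.113 (iWAT and BAT), -0.310 to 0.086 (eWAT and iWAT) and -0.175 to 0.050 (eWAT and BAT), and 1 of 8, 0 of 10 and 0 of 8 samples correlated best with their own number. Pairing was therefore not used. With the number as a replicate block 27, 19 and 31 members passed, and 3 and 7 on identical rows, against 59.3%, 45.4%, 67.6%, 8.32% and 58.4% of all rows. The calls of Kcnh2 and Kcnk6 between eWAT and iWAT were lost with the block, and Kcna5 passed between iWAT and BAT (-1.58, edgeR adjusted p = 0.0226).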
